A study of Mus musculus with 24 samples.

Results

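Lztfl1, Ccr9, Cxcr6, Fyco1 and Xcr1 lie side by side on mouse chromosome 9. They were picked as a group because of the values described here, as 5 of 19938 genes measured on 24 arrays of T6E cells. Each gene is represented by 1 probe set, the one with the highest mean over the 24 arrays among those with a single gene symbol. Since these expression values led to the choice of the 5 genes, their levels and differences are a description and carry no test. Tests are given for genes that were taken by position or by function.

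T6E is a mouse T-cell leukaemia line whose growth depends on Notch1. The labels describe cells transfected with R1984A, an intracellular Notch1 that is defective in dimerization, with ICN1, the intracellular Notch1 itself, with DNMAML, a dominant negative form of the coactivator MAML, or with the empty vector MigR1. For 6 hours each kind of cell was given either Compound E at 1 uM, which inhibits gamma-secretase and is called GSI here, or DMSO. This gave 8 groups of 3 arrays, named here by construct and treatment: R1984A-GSI, ICN1-GSI, DNMAML-GSI, MigR1-GSI, R1984A-DMSO, ICN1-DMSO, DNMAML-DMSO and MigR1-DMSO. All groups share the T6E background with its own Notch1 signal. The labels do not say whether a construct was studied in 1 clone or in a pool, or whether the 3 samples of a group came from different cultures. The p-values below therefore rest on a spread between samples that may be no more than technical. Of 10 measured T-cell markers, 9 lay above the array median on all 24 arrays. In bulk RNA, fewer cells that use a gene and less of its RNA per cell cannot be told apart.

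Notch1 is cut by gamma-secretase after its ligand binds, and the released intracellular part joins the DNA-binding protein RBPJ and MAML to switch genes on. Genes of the Hes and Hey families, which encode repressors, are among its best known targets. Ccr9, Cxcr6 and Xcr1 encode chemokine receptors, which steer leukocytes: Ccr9 answers to Ccl25 in thymus and small intestine, Cxcr6 to Cxcl16, and Xcr1, a mark of cross-presenting dendritic cells, to Xcl1. Lztfl1 encodes a leucine zipper protein that regulates the BBSome, the coat complex that carries proteins in and out of cilia. Fyco1 encodes an adaptor that links autophagosomes and late endosomes to kinesin.

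On GRCm38.p6, Lztfl1 spans bases 123694404 to 123717625 of chromosome 9 on the minus strand. Ccr9 follows at 123767211 to 123783457 on the plus strand, and Fyco1 at 123789500 to 123851899 on the minus strand. Cxcr6, at 123806477 to 123811754 on the plus strand, lies wholly inside the span of Fyco1. Xcr1 lies last, at 123852315 to 123862029 on the minus strand. The whole interval is 167.6 kb long, and the start sites of Lztfl1 and Ccr9 are 49.6 kb apart.

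The 250 bases upstream of the start are shown for Lztfl1, Ccr9 and Cxcr6, the 3 genes whose levels differed most between the groups. They were read from RefSeq (GRCm38.p6) and are printed 5′ to 3′ on the strand of each gene. Lztfl1 is chr9:123717626-123717875 on the minus strand, Ccr9 is chr9:123766961-123767210 on the plus strand, and Cxcr6 is chr9:123806227-123806476 on the plus strand. Capitals mark the matches to 5 motifs, searched on both strands. The RBPJ core was searched as TGGGAA. An E-box of the kind that Hes and Hey proteins bind was searched as CACGTG, and the N-box of Hes proteins as CACNAG. The core of Runx factors was searched as TGTGGT, and that of Gata factors as AGATAA.
Lztfl1: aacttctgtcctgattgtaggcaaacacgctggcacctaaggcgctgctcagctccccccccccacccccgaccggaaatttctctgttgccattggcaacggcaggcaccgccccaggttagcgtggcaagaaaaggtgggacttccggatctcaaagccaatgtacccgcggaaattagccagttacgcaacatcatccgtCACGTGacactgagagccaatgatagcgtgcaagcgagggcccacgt
Ccr9: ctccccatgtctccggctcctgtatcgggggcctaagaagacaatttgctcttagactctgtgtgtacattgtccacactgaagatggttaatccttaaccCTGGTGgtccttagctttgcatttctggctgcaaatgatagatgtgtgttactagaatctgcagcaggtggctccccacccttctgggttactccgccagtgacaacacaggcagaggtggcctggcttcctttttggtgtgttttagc
Cxcr6: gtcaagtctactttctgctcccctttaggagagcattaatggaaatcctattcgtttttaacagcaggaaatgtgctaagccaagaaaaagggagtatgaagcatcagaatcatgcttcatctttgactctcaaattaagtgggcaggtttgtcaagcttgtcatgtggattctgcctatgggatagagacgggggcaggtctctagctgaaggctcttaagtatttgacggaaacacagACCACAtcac
The Lztfl1 window held CACGTG at -47, the N-box match of Ccr9 is CTGGTG at -149, and the Runx match of Cxcr6 is ACCACA at -10, counted from the start site. A pair of further matches in the Lztfl1 window reach or pass the start site. The first is a second CACGTG at -5, at chr9:123717615-123717640, and the other is TTCCCA, the RBPJ core on the opposite strand, at 8 bases after the start, at chr9:123717603-123717628. They are shown with 10 bases on each side, and overlap each other's flanks.
Lztfl1 E-box at the start: agcgagggccCACGTGtctccgttcc
Lztfl1 RBPJ core: cgtgtctccgTTCCCAttggcaacgc
Over windows of 300 bases, from 250 before to 50 after the start, 7.15% of 32851 windows of all genes held CACGTG and 0.594% held it at least 2 times, as Lztfl1 did. TGGGAA was found in 25.6% of these windows, and among the 5 genes in 1, Lztfl1. CACNAG was found in 42.5% and TGTGGT in 16.8% of windows, and AGATAA, held by 11.2%, in 0 of the 5 genes. Xcr1 held CACGTG at -227 and the second of 2 RefSeq windows of Fyco1 held CACGAG at -128. A match of letters is no proof of binding and does not single out which protein would bind, and no binding data were used.

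Lztfl1 was lowest in cells with either intracellular Notch1 and highest in cells with DNMAML. On the deposited log2 scale it read 8.97, 8.64 and 8.68 in R1984A-GSI, 8.76, 8.64 and 8.54 in ICN1-GSI, 10.42, 10.78 and 10.54 in DNMAML-GSI, and 9.79, 10.01 and 9.89 in MigR1-GSI. In DMSO it read 8.43, 8.69 and 8.58 with R1984A, 8.62, 8.61 and 8.35 with ICN1, 10.26, 10.38 and 10.51 with DNMAML, and 9.39, 9.24 and 9.50 with MigR1. All 12 arrays of the R1984A and ICN1 groups thus lay below all 6 MigR1 arrays, and all 6 DNMAML arrays above them. The group means spanned 2.05 on the log2 scale, a 4.14-fold range, which placed Lztfl1 at percentile 99.8 of all genes by this range. From lowest to highest, the means ran ICN1-DMSO, R1984A-DMSO, ICN1-GSI, R1984A-GSI, MigR1-DMSO, MigR1-GSI, DNMAML-DMSO and DNMAML-GSI. The first 4 of these overlapped with their neighbours in the order, as did the 2 DNMAML groups, whereas a gap without overlap separated R1984A-GSI, MigR1-DMSO, MigR1-GSI and DNMAML-DMSO from each other.

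**Figure D1:**
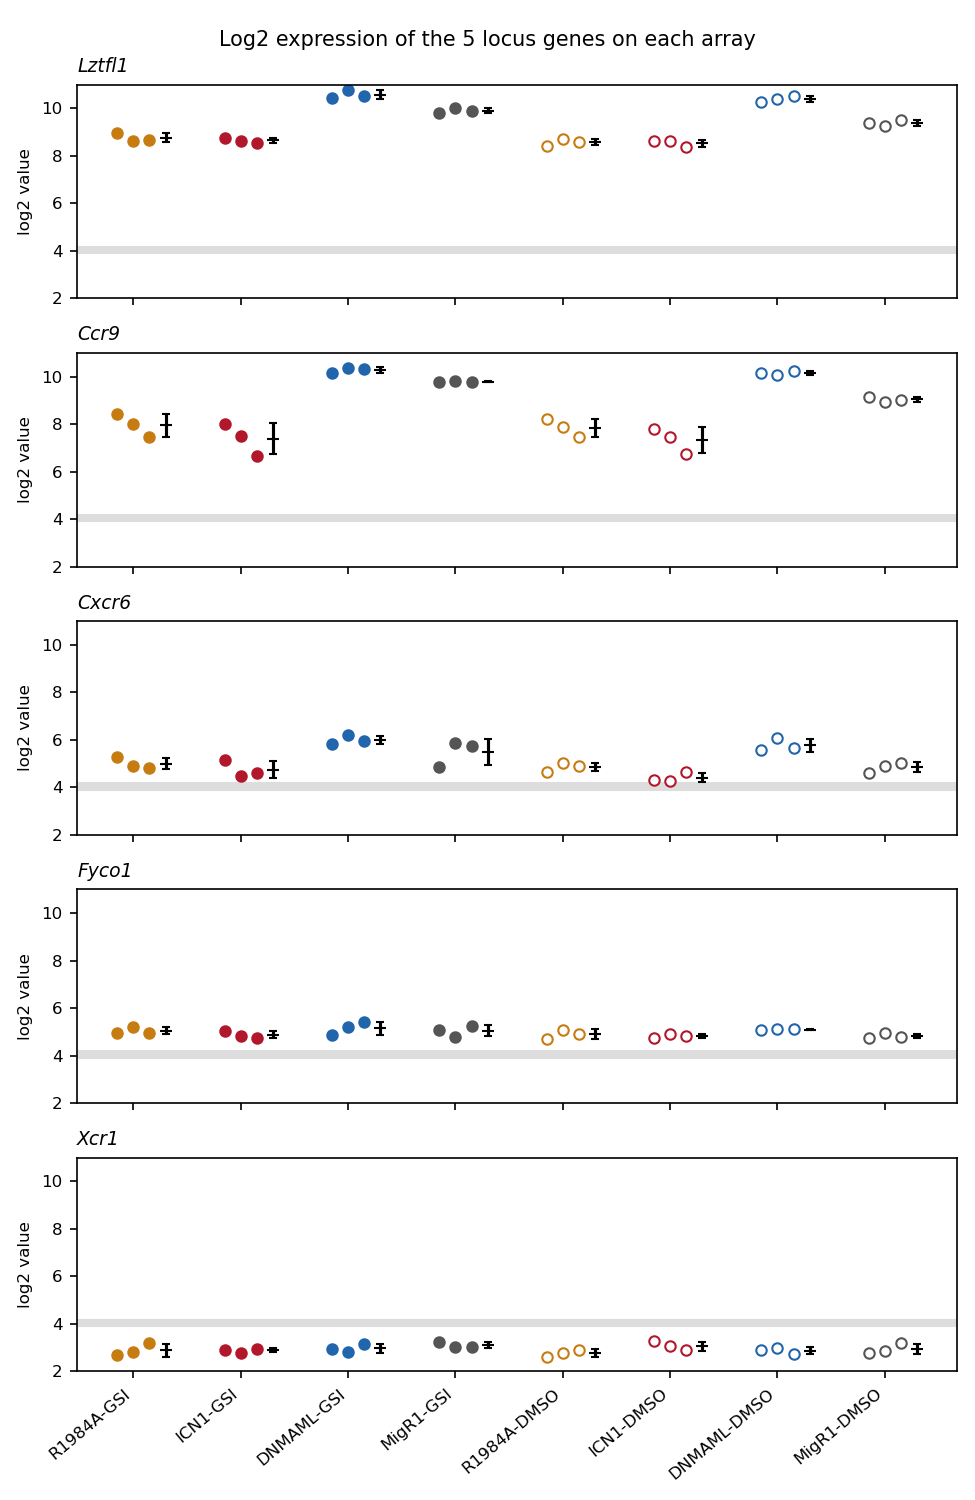
Log2 value of each of the 5 genes (vertical axis) on each array, by group (horizontal axis); filled points are GSI, open points DMSO, and the black mark beside each group is the mean with its SD (n = 3). The grey band is the range of the 24 array medians, 3.9 to 4.18; Lztfl1 and Ccr9 step down with R1984A and ICN1 and up with DNMAML, while Fyco1 and Xcr1 stay within 0.33 between group means.

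A further probe set that the annotation assigns to Lztfl1 alone separated the constructs in the same way. Its group means were 7.16 in R1984A-GSI, 6.93 in ICN1-GSI, 9.41 in DNMAML-GSI and 8.59 in MigR1-GSI, and in DMSO 6.98 with R1984A, 7.12 with ICN1, 9.26 with DNMAML and 7.93 with MigR1. Over the 8 group means, taken from the same arrays, it correlated with the main probe set at r = 0.996. Its differences were -1.66 for ICN1-GSI and -1.43 for R1984A-GSI against MigR1-GSI, larger in size than -1.25 and -1.13 on the main probe set. Between ICN1-DMSO and MigR1-DMSO it gave -0.81, beside -0.85 on the main probe set. The difference between ICN1-GSI and ICN1-DMSO had opposite signs, -0.19 on this probe set and 0.12 on the main one. Where on the genome this probe set lies was not examined here.

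Ccr9, the receptor for Ccl25, was likewise lowest with ICN1 or R1984A and highest with DNMAML, over a wider range. It read 8.41, 7.99 and 7.44 in R1984A-GSI, 8.0, 7.49 and 6.68 in ICN1-GSI, 10.13, 10.38 and 10.33 in DNMAML-GSI, and 9.78, 9.81 and 9.75 in MigR1-GSI. In DMSO it read 8.21, 7.88 and 7.44 with R1984A, 7.79, 7.48 and 6.74 with ICN1, 10.16, 10.06 and 10.23 with DNMAML, and 9.15, 8.92 and 9.03 with MigR1. Again the 12 arrays with intracellular Notch1 lay below every MigR1 array and the 6 DNMAML arrays above. The group means ranged over 2.95 on the log2 scale, 7.71-fold, at percentile 99.9 of all genes. From lowest to highest, the means ran ICN1-DMSO, ICN1-GSI, R1984A-DMSO, R1984A-GSI, MigR1-DMSO, MigR1-GSI, DNMAML-DMSO and DNMAML-GSI. The same gaps as for Lztfl1 separated R1984A-GSI, MigR1-DMSO, MigR1-GSI and DNMAML-DMSO, and the other neighbours in the order overlapped.

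The spread of Ccr9 was uneven. Its SD was 0.49 in R1984A-GSI, 0.67 in ICN1-GSI, 0.39 in R1984A-DMSO and 0.54 in ICN1-DMSO, against 0.027 in MigR1-GSI and 0.11 in MigR1-DMSO. It was 0.13 in DNMAML-GSI and 0.086 in DNMAML-DMSO. The fit uses 1 spread per gene over all 8 groups, with a pooled SD of 0.38 for Ccr9. The SEs, intervals and calls of Ccr9 below rest on it. For their own SDs, they are wide between MigR1 and DNMAML groups and narrow where ICN1 is compared. In all 4 groups with intracellular Notch1 the array numbered 1 was the highest and the array numbered 3 the lowest. The arrays numbered 3 also had the higher array medians, 4.05 to 4.18, against 3.91 to 3.95 for the arrays numbered 1, and the part of this in the spread of Ccr9 was not tested. In these 4 groups Lztfl1 was highest on number 1 in 3 and lowest on number 3 in 2. Over all 8 groups the mean deviation from the group mean was -0.012 on number 1 and -0.019 on number 3 for Lztfl1, and 0.23 and -0.27 for Ccr9.

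Cxcr6, the receptor for Cxcl16, was also lowest with ICN1 and highest with DNMAML, over a smaller range and with more overlap. With R1984A in DMSO its mean, 4.86, was level with the 4.85 of MigR1-DMSO. It read 5.27, 4.91 and 4.83 in R1984A-GSI, 5.15, 4.47 and 4.62 in ICN1-GSI, 5.84, 6.19 and 5.94 in DNMAML-GSI, and 4.88, 5.86 and 5.72 in MigR1-GSI. In DMSO it read 4.65, 5.01 and 4.92 with R1984A, 4.33, 4.27 and 4.64 with ICN1, 5.58, 6.08 and 5.65 with DNMAML, and 4.61, 4.92 and 5.03 with MigR1. The first MigR1-GSI array stood apart from the other two of its group and lay below 3 of the 6 arrays with R1984A or ICN1 in GSI. From lowest to highest the means ran ICN1-DMSO, ICN1-GSI, MigR1-DMSO, R1984A-DMSO, R1984A-GSI, MigR1-GSI, DNMAML-DMSO and DNMAML-GSI, and each group overlapped with the next. Its group means ranged over 1.58, 2.98-fold, at percentile 99.4 of all genes.

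Fyco1, the autophagosome adaptor around Cxcr6, hardly differed between groups. Its group means lay between 4.83 and 5.16, a range of 0.33 on the log2 scale or 1.25-fold, at percentile 57.5 of all genes, and each overlapped with the next in order. Of the 12 comparisons, the single one without overlap was DNMAML-DMSO, at 5.07, 5.12 and 5.12, against MigR1-DMSO, at 4.76, 4.94 and 4.80. Fyco1 and Cxcr6 lie on opposite strands of shared sequence, and the positions of their probes were not examined here.

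Xcr1, the receptor for Xcl1, lay below the array median on all 24 arrays, with group means from 2.77 to 3.10. Its range over the groups was 0.33, at percentile 59.1 of all genes. Of 8 markers of the dendritic cells that carry Xcr1, 5 lay below the array median on all 24 arrays, among them Clec9a and Itgax. Of the others, Cadm1 lay above it on 24 arrays, Batf3 on 23 and Flt3 on 3. The mean log2 value of these 8 markers on single arrays stayed between 3.31 and 3.64.

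In empty-vector cells, where GSI stops the release of the cells' own Notch1, Lztfl1, Ccr9 and Cxcr6 were each higher on average with GSI. Lztfl1 averaged 9.89 ± 0.11 in MigR1-GSI and 9.38 ± 0.13 in MigR1-DMSO (SD, n = 3 each), a log2 difference of 0.52 (SE 0.12). Ccr9 averaged 9.78 ± 0.027 in MigR1-GSI and 9.03 ± 0.11 in MigR1-DMSO, a difference of 0.75 (SE 0.27), and Cxcr6 differed by 0.63 (SE 0.22). The arrays of Lztfl1 and Ccr9 did not overlap between MigR1-GSI and MigR1-DMSO, which held for 2 of the 5 genes and for 8.5% of all genes. Fyco1 differed by 0.22 and Xcr1 by 0.16, each with overlapping arrays. The median of the 5 differences was 0.52, against 0.0047 over all genes, of which 0.166% were called either way at an adjusted p under 0.05 in limma, as were 0 of the 5 genes.

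DNMAML, which blocks the complex at the MAML step, went with higher levels of the same 3 genes. Between DNMAML-DMSO, at 10.38 ± 0.13, and MigR1-DMSO, at 9.38 ± 0.13, Lztfl1 differed by 1.01 (SE 0.12), or 2.01-fold. Ccr9 averaged 10.15 ± 0.086 in DNMAML-DMSO and 9.03 ± 0.11 in MigR1-DMSO, a difference of 1.12 (SE 0.27). Cxcr6 averaged 5.77 ± 0.27 in DNMAML-DMSO and 4.85 ± 0.22 in MigR1-DMSO, a difference of 0.92 (SE 0.22). With Fyco1, 4 of the 5 genes had arrays that did not overlap, as did 16.3% of all genes. These 3 of the 5 genes were called higher at an adjusted p under 0.05 in limma, as were 1.1% of all genes, and nothing is read from this count because the genes were chosen on such values. Leaving out any 1 of the 6 arrays ended the call of Ccr9, with differences between 1.06 and 1.17, and leaving out 4 of the 6 ended that of Cxcr6. The mean of the 10 T-cell markers was also higher on the DNMAML-DMSO arrays, at 8.42 to 8.55, than on the MigR1-DMSO arrays, at 8.11 to 8.31, with Cd247 and Thy1 called higher. Its part in the differences of the 3 genes was not tested.

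In cells under GSI, intracellular Notch1 went with lower Lztfl1 and Ccr9. Lztfl1 averaged 8.65 ± 0.11 in ICN1-GSI and 9.89 ± 0.11 in MigR1-GSI, a difference of -1.25 (SE 0.12), or 2.37-fold lower. Ccr9 averaged 7.39 ± 0.67 in ICN1-GSI and 9.78 ± 0.027 in MigR1-GSI, a difference of -2.39 (SE 0.27), or 5.24-fold lower. Cxcr6 differed by -0.74 (SE 0.22), and between arrays of the same number by 0.27, -1.40 and -1.10, so the pair numbered 1 went the other way. Fyco1 differed by -0.17 and Xcr1 by -0.21, with an SE of 0.14 for both. The arrays of Lztfl1, Ccr9 and Xcr1, 3 of the 5 genes, did not overlap, as for 12.3% of all genes, and Xcr1 was dim. Lztfl1 and Ccr9, 2 of the 5 genes, were called lower, as were 1.07% of all genes. Cxcr6 was called lower in 5 of 14 alternative fits, among them the fit without the first MigR1-GSI array. The mean of the T-cell markers was 7.92 to 8.10 in ICN1-GSI and 8.06 to 8.34 in MigR1-GSI, and its part in the result was not tested.

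R1984A also went with lower Lztfl1 and Ccr9. Lztfl1 averaged 8.76 ± 0.18 in R1984A-GSI and 9.89 ± 0.11 in MigR1-GSI, a difference of -1.13 (SE 0.12), or 2.19-fold lower. Ccr9 averaged 7.95 ± 0.49 in R1984A-GSI and 9.78 ± 0.027 in MigR1-GSI, a difference of -1.83 (SE 0.27), or 3.57-fold lower. Cxcr6 differed by -0.48 (SE 0.22), and between same-numbered arrays by 0.40, -0.95 and -0.89. Again 2 of the 5 genes, Lztfl1 and Ccr9, were called lower, as were 0.326% of all genes. The mean of the T-cell markers was 7.99 to 8.17 in R1984A-GSI and 8.06 to 8.34 in MigR1-GSI, and its part here was not tested either. In both contrasts with MigR1-GSI the calls of Lztfl1 and Ccr9 were kept in each of 14 alternative fits.

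The direct comparison of R1984A with ICN1 bears on dimerization, the step named in the labels for R1984A. The Notch1 probe set also differed between R1984A and ICN1, by -0.25 in GSI and -0.27 in DMSO. Its arrays did not overlap in either treatment, and neither difference was called. The part of the Notch1 level in the differences below was not tested. In GSI, Lztfl1 was 0.11 higher in R1984A-GSI than in ICN1-GSI, with a 95% interval of -0.14 to 0.37. Ccr9 was 0.56 higher in R1984A-GSI, with an interval of -0.01 to 1.12, and Cxcr6 0.26 higher, with an interval of -0.19 to 0.71. Between arrays of the same number Ccr9 was higher with R1984A in all 3 pairs, by 0.41, 0.50 and 0.76, and Cxcr6 by 0.12, 0.44 and 0.21. In DMSO the differences of R1984A from ICN1 were 0.04 for Lztfl1, 0.51 for Ccr9 and 0.44 for Cxcr6. The same-numbered pairs in DMSO differed by 0.42, 0.41 and 0.70 for Ccr9 and by 0.32, 0.73 and 0.28 for Cxcr6. No test is attached to these pairs, and those of Lztfl1 had both signs in each treatment. Same-numbered arrays deviated together (r over 0.1) at every number between R1984A-DMSO and ICN1-DMSO, at r of 0.25, 0.19 and 0.43. Between R1984A-GSI and ICN1-GSI they did so at numbers 1 and 3 (r of 0.45 and 0.45), but not at number 2 (r of 0.06). The arrays of all 5 genes overlapped between R1984A-GSI and ICN1-GSI, whereas 12.1% of all genes did not overlap. Between R1984A-DMSO and ICN1-DMSO, 1 of the 5 genes did not overlap, Cxcr6, as did 13.4% of all genes. For Ccr9 the interval reaches beyond 1 log2 unit, so 3 arrays a group do not bound this difference closely. The 2 contrasts with MigR1-GSI share its 3 arrays, and only this direct comparison compares R1984A with ICN1.

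**Figure D2:**
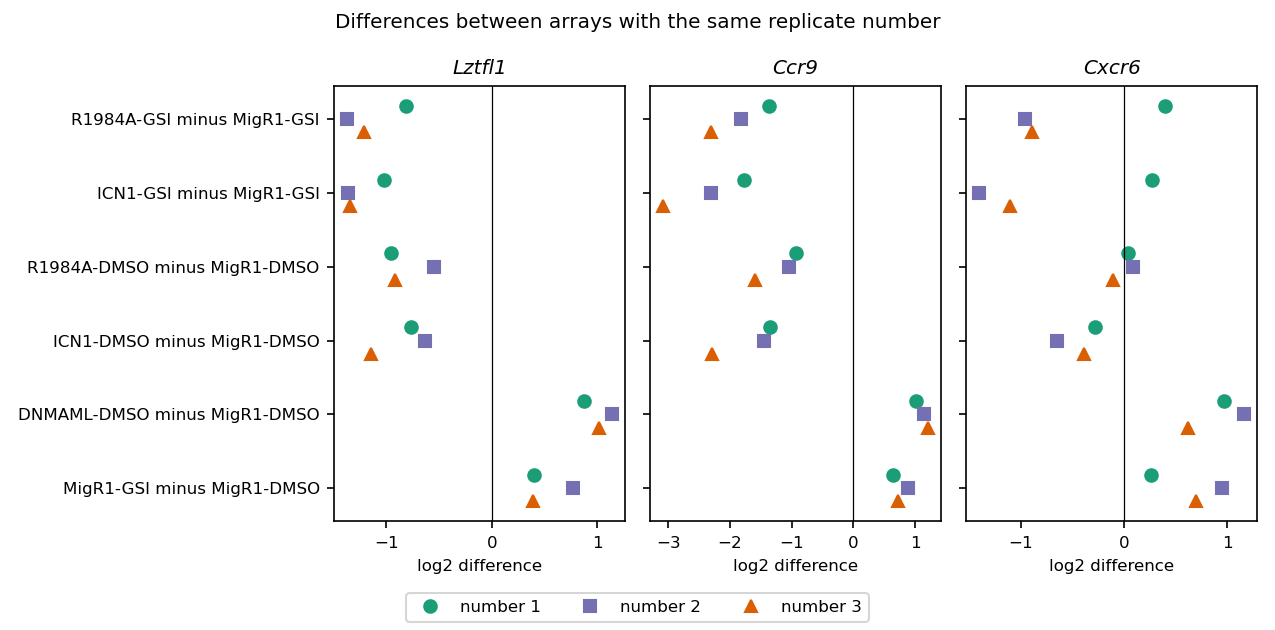
Log2 difference (horizontal axis) between arrays of the same replicate number for 6 comparisons (rows), with a panel for each of Lztfl1, Ccr9 and Cxcr6; each symbol is 1 pair of arrays. All 3 pairs lie on one side of 0 for Lztfl1 and Ccr9 in every row, while Cxcr6 has pairs on both sides for R1984A-GSI and ICN1-GSI against MigR1-GSI and for R1984A-DMSO against MigR1-DMSO. Same-numbered samples did not deviate together at every number (r over 0.1) for R1984A-GSI and ICN1-GSI against MigR1-GSI.

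The same constructs were also compared in DMSO, where the cells' own Notch1 was not inhibited. Lztfl1 differed by -0.81 between R1984A-DMSO and MigR1-DMSO and by -0.85 between ICN1-DMSO and MigR1-DMSO. Ccr9 differed by -1.19 and -1.70 in these comparisons, in the same order. In each of them 2 of the 5 genes, Lztfl1 and Ccr9, were called lower, as were 0.11% of all genes with R1984A and 0.306% with ICN1. Leaving out 1 array at a time kept the call of Ccr9 between R1984A-DMSO and MigR1-DMSO in 1 of 6 fits, with differences of -1.37 to -0.99. The call of Lztfl1 between ICN1-DMSO and MigR1-DMSO was lost in 2 of 14 alternative fits, without all arrays numbered 3 (-0.70) and with the further probe set (-0.81). Cxcr6 differed by 0.01 with R1984A and by -0.44 with ICN1. On the ICN1-DMSO arrays the mean of the T-cell markers was 7.876 to 8.004, below the 8.112 to 8.312 of MigR1-DMSO. On the R1984A-DMSO arrays it was 8.054 to 8.294, which overlapped with MigR1-DMSO. The part of this marker mean in the differences of Lztfl1 and Ccr9 was not tested.

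For Lztfl1, Ccr9 and Cxcr6, the differences between GSI and DMSO were smaller in size with R1984A, ICN1 or DNMAML than in MigR1 cells. Lztfl1 differed between GSI and DMSO by 0.20 in R1984A cells, 0.12 in ICN1 cells and 0.19 in DNMAML cells, against 0.52 in MigR1 cells. For Ccr9 these differences were 0.10 in R1984A cells, 0.06 in ICN1 cells and 0.13 in DNMAML cells, against 0.75 in MigR1 cells. For Cxcr6 they were 0.14 in R1984A cells, 0.33 in ICN1 cells and 0.22 in DNMAML cells, against 0.63 in MigR1 cells. Xcr1, which was dim, differed by -0.18 in ICN1 cells and by 0.16 in MigR1 cells. For Lztfl1 and Ccr9 the difference between the responses was also estimated directly, without a test. The GSI response of Lztfl1 in ICN1 cells minus that in MigR1 cells was -0.40, with an interval of -0.76 to -0.04, and that of Ccr9 was -0.69, with an interval of -1.49 to 0.11. For R1984A cells minus MigR1 cells it was -0.32 (-0.69 to 0.04) for Lztfl1 and -0.64 (-1.44 to 0.16) for Ccr9. For DNMAML cells minus MigR1 cells it was -0.33 (-0.69 to 0.04) for Lztfl1 and -0.62 (-1.42 to 0.18) for Ccr9. Of these 6 intervals, the one for Lztfl1 in ICN1 cells did not hold 0. The Ccr9 intervals use the spread shared by all 8 groups, which exceeds the SD of the MigR1 and DNMAML groups. The Ccr9 interval for DNMAML cells is therefore wide for the groups it compares. Under GSI, DNMAML cells still stood above MigR1 cells, by 0.68 for Lztfl1, 0.50 for Ccr9 and 0.50 for Cxcr6. Lztfl1, 1 of the 5 genes, was called higher there, as were 0.105% of all genes, and leaving out 4 of the 6 arrays in turn ended that call.

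Across the 8 group means, Lztfl1 and Ccr9 correlated with r = 0.98, Lztfl1 and Cxcr6 with r = 0.94, and Ccr9 and Cxcr6 with r = 0.92. These are 8 points from the same arrays, given as a description. Such values were common among 428 genes at or above the median level whose group means ranged over at least 1 log2 unit. Of these, 64 had r over 0.95 with Lztfl1, 67 with Ccr9 and 50 with Cxcr6, so nothing particular to the locus is read from them. Fyco1 correlated with Cxcr6 at 0.92, although its range was small, and Xcr1 with each of the other 4 genes at 0.06 to 0.25. After the group means were subtracted, the 24 arrays still gave r = 0.52 for Lztfl1 with Ccr9 and 0.47 for Lztfl1 with Cxcr6, but 0.11 for Ccr9 with Cxcr6.

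**Figure D3:**
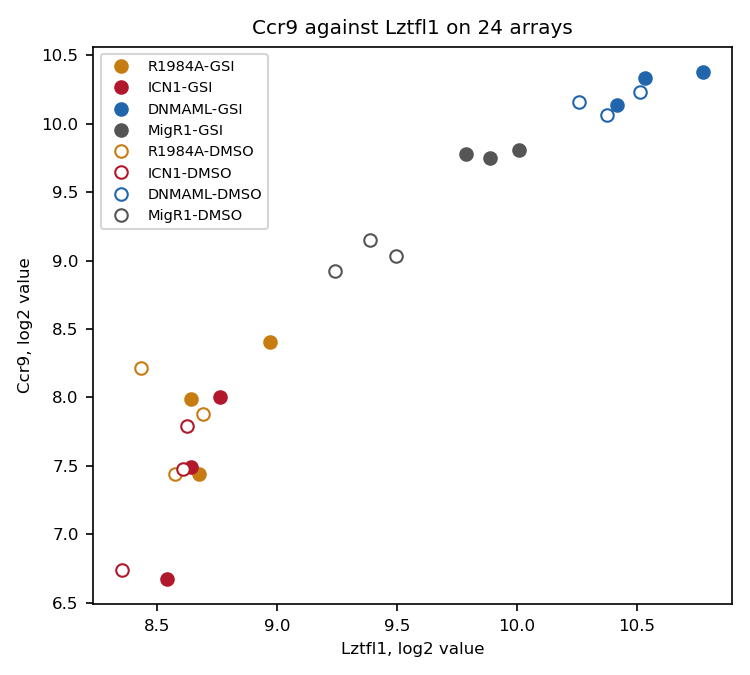
Log2 value of Ccr9 (vertical axis) against that of Lztfl1 (horizontal axis) on the 24 arrays, coloured by construct, filled for GSI and open for DMSO. The 12 arrays with R1984A or ICN1 lie at the lower left, where Ccr9 spreads from 6.68 to 8.41 while Lztfl1 stays between 8.35 and 8.97, and the DNMAML arrays lie at the upper right.

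Among 428 genes at or above the median level whose group means ranged over at least 1 log2 unit, the one most like Lztfl1 over the 8 group means was Ccr8 (r = 0.995), another chemokine receptor. Ccr8 is not among the RefSeq genes within 500 kb of the interval, and where on the genome it lies was not examined here. Ggct, Pvr, Sema4a and Degs2 followed, at r between 0.987 and 0.991. The most opposed were Rhox9 (r = -0.993), Dph5 and Il2ra (r = -0.988), which encodes CD25, a subunit of an interleukin receptor. Ccr9 was most like Sox13 (r = 0.995), a transcription factor of the Sox family, Rab27a and Camk4, and most opposed to Rbms1 (r = -0.996), Cdh1 and Pld1. Cxcr6 was most like Plxnc1 (r = 0.985) and Aff4, and most opposed to Agfg1 (r = -0.987) and Nifk. The closest genes to Xcr1 reached r = 0.617 (B4galt1).

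Genes around the interval were taken by position alone, so they can be tested. Of 24 RefSeq genes within 500 kb of it, 11 were measured, and 4 of these (Cdcp1, Ccr1, Ccr1l1 and Ccr3) lay below the array median on all 24 arrays. The neighbours next to Lztfl1 were not called in any of the 12 comparisons. Slc6a20a, an amino acid transporter gene 15.6 kb away, averaged 3.98 in ICN1-GSI and 4.18 in MigR1-GSI, a difference of -0.20 (SE 0.16, adjusted p = 0.78), and it averaged 4.15 in DNMAML-DMSO and 4.25 in MigR1-DMSO. Sacm1l, which encodes a phosphoinositide phosphatase, had group means within 0.22 of each other.

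A single neighbour was called in each of 3 comparisons, and in 2 of them it went against Lztfl1 and Ccr9. Tmem158, a membrane protein gene 433.6 kb before the interval, read 5.62, 5.53 and 5.62 in ICN1-GSI, against 4.40, 5.03 and 4.71 in MigR1-GSI. It rose by 0.88 (SE 0.16, adjusted p = 0.0020) and was the 1 of 11 neighbours called, beside 2.35% of all genes. In R1984A-GSI it read 5.40, 5.43 and 5.70, and it rose by 0.80 over MigR1-GSI (SE 0.16, adjusted p = 0.0079), again 1 of 11, beside 1.36% of all genes. Leaving out the first MigR1-GSI array or the third R1984A-GSI array ended this call, with differences of 0.64 to 0.95 over the 6 fits that leave out 1 array.

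The other neighbour was Ccr2, a chemokine receptor of monocytes and activated T cells, 239.9 kb after Xcr1. It read 4.12, 4.35 and 4.19 in DNMAML-DMSO, against 3.47, 3.48 and 3.49 in MigR1-DMSO. It rose by 0.74 (SE 0.15, adjusted p = 0.0069), the 1 of 11 neighbours called, beside 1.94% of all genes. Ccr2 lay below the array median on 17 of 24 arrays, so its signal was low. Leaving out the second DNMAML-DMSO array ended the call, with differences of 0.67 to 0.79 over these 6 fits. Between ICN1-GSI and MigR1-GSI it differed by -0.53, which passed the threshold only where the replicate number was a block, or without the first MigR1-GSI array. In limma, 0 of 11 neighbours were called for MigR1-GSI against MigR1-DMSO, 0 also at an unadjusted p under 0.05, and for R1984A-GSI against ICN1-GSI the counts were likewise 0 and 0, where 1.1% of all genes were called.

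**Figure D4:**
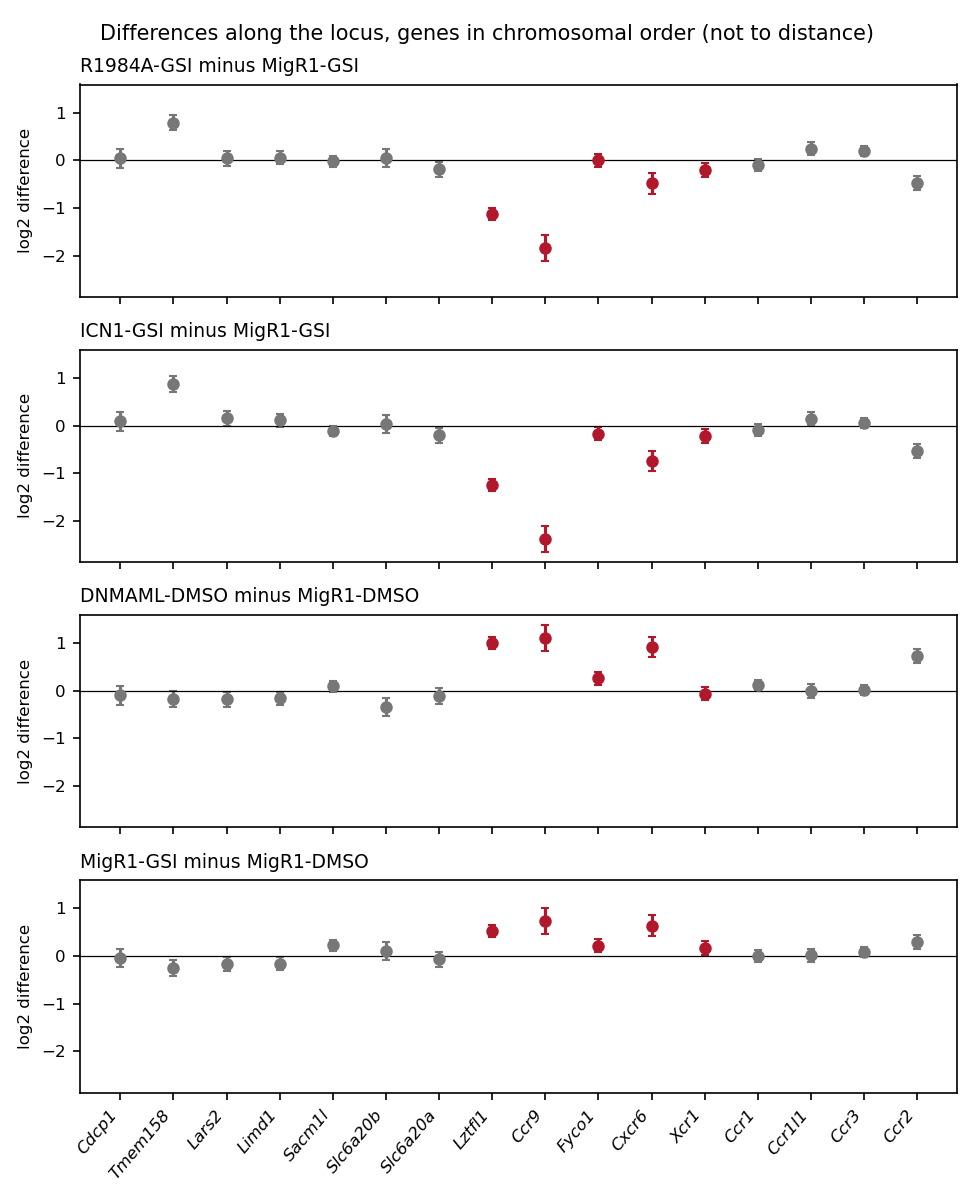
Log2 difference (vertical axis, point with its SE) for the 5 genes in red and the 11 measured neighbours in grey, in chromosomal order along the horizontal axis and not to distance, for 4 comparisons. For R1984A-GSI and ICN1-GSI, Lztfl1 and Ccr9 lie lowest, with Tmem158 on the positive side of 0. For DNMAML-DMSO and MigR1-GSI against MigR1-DMSO, Cxcr6 lies close to them, at 0.92 and 0.63. Ccr2 is at 0.74 for DNMAML-DMSO.

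None of the ligands of the 3 receptors was called. In limma, 0 of Ccl25, Cxcl16 and Xcl1 were called in any of the 12 comparisons. Their differences over these lay between -0.33 and 0.20, and in the 5 main comparisons 1 value, in DNMAML-DMSO against MigR1-DMSO, had an unadjusted p under 0.05. Ccl25 lay above the array median on all 24 arrays, and Cxcl16 and Xcl1 on 0 of them. In the 5 main comparisons 0.166% to 2.35% of all genes were called, so nothing is read from the lack of calls among these ligands.

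Of 16 chemokine receptors that are not among the genes within 500 kb of the interval, few were called at an adjusted p under 0.05. Where on the genome these receptors lie was not examined here. Ccr8 rose by 2.87 in DNMAML-DMSO over MigR1-DMSO, the 1 of 16 called, beside 1.94% of all genes. Both Ccr8, which fell by 3.45, and Cx3cr1, the fractalkine receptor, were lower in ICN1-GSI than in MigR1-GSI, as 2 of 16, beside 2.35% of all genes. Ccr8 alone was lower in R1984A-GSI, by a difference of -3.53, beside 1.36% of all genes. Cx3cr1 averaged 5.09 ± 0.23 in ICN1-GSI and 5.74 ± 0.20 in MigR1-GSI, a difference of -0.65 (SE 0.16, adjusted p = 0.025), and was called in 2 of the 6 fits that leave out 1 array. Ccr7, which leads T cells to lymph nodes, averaged 4.89 in R1984A-DMSO and 5.60 in ICN1-DMSO, a difference of -0.71 (SE 0.16, adjusted p = 0.021), beside 0.963% of all genes called. The median of the 16 receptors was -0.10 between ICN1-GSI and MigR1-GSI, against -0.01 over all genes.

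Few partners of Lztfl1 and Fyco1 were called, as were few of all genes. Of 12 genes of the BBSome and its assembly 10 were measured, and in limma 0 were called in the 4 contrasts of ICN1-GSI, R1984A-GSI, DNMAML-DMSO and MigR1-GSI with their MigR1 controls. Over all genes, 2.35%, 1.36%, 1.94% and 0.166% were called in these contrasts, in the same order. At such shares nothing is read from 0 of 10. At an unadjusted p under 0.05 the counts were 2 for ICN1-GSI, 0 for R1984A-GSI, 1 for DNMAML-DMSO and 0 for GSI in MigR1 cells. Bbs12, a chaperonin-like gene for BBSome assembly, was lower in R1984A-GSI, at 5.44 ± 0.22, than in ICN1-GSI, at 6.05 ± 0.18, a difference of -0.61 (SE 0.14, adjusted p = 0.037), and was called in 2 of the 6 fits that leave out 1 array. Between R1984A-GSI and ICN1-GSI 1.1% of all genes were called. Of 16 genes of autophagosome and late endosome transport, among them Rab7, Plekhm1 and Kif5b, 0 were called in any of the 5 main comparisons, with 3 at an unadjusted p under 0.05 for DNMAML-DMSO and 1 for ICN1-GSI. At the shares above, nothing is read from 0 of 16 either. The unadjusted counts have no share over all genes beside them, and nothing is read from them.

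Known Notch targets served as a check of the groups, and moved the other way from Lztfl1 and Ccr9. Of 8 such genes, 8 were called higher in ICN1-GSI and 5 in R1984A-GSI than in MigR1-GSI, at an adjusted p under 0.05 in limma, beside 2.35% and 1.36% of all genes called. Against MigR1-DMSO, 7 were called lower in DNMAML-DMSO and 5 in MigR1-GSI, beside 1.94% and 0.166% of all genes. The Notch1 probe set itself averaged 7.07 in R1984A-GSI and 7.32 in ICN1-GSI, against 5.66 in MigR1-GSI. It averaged 6.22 in MigR1-DMSO, above MigR1-GSI without overlap, and this difference was not called. The Maml1 probe set averaged 4.52 in DNMAML-DMSO and 4.40 in MigR1-DMSO. These arrays overlapped and the difference was not called, so the Maml1 probe set did not mark the DNMAML cells. Many markers of other cells were low, though not all. Of 7 myeloid markers 6, and of 5 measured B-cell markers 4, lay below the array median on all 24 arrays. Of 7 markers of natural killer and innate cells 5 lay below it, and Gzma, the granzyme gene that lay above it on all 24 arrays, was called higher in DNMAML-DMSO than in MigR1-DMSO, by 0.43. Of 7 markers of stroma and epithelium 3 lay below the array median on all 24 arrays and Col1a1 and Col1a2, collagen genes, above it, and in limma 0 were called in the 5 main comparisons, 0 also at an unadjusted p under 0.05. Of 5 markers of plasmacytoid dendritic cells 2 lay below it, and Tcf4 and Bst2 above it on all 24 arrays. Tcf4, a transcription factor of those cells that other cells use too, averaged 7.30 in ICN1-GSI and 6.74 in MigR1-GSI, a difference of 0.56 (SE 0.10, adjusted p = 0.00094). It was also called higher in R1984A-GSI than in MigR1-GSI, by 0.42 (adjusted p = 0.021), and in ICN1-DMSO than in MigR1-DMSO, by 0.55 (adjusted p = 0.0035). Its part in the differences of Lztfl1 and Ccr9 was not tested.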

How the data were processed

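RNA of 24 T6E samples was measured on Affymetrix Mouse Gene 1.0 ST arrays. The deposited values are log2 expression values made by the authors for each probe set. They used the R packages oligo and limma, per the submitters' processing notes, and their steps of background correction and normalization are not given in the sources used here. This scale was read from the values, 1.28 to 13.47, and no further scaling was applied. Of 35556 probe sets, 21789 had a single symbol, 1621 had several and 12146 were unnamed; the one with the highest mean was kept per gene, which left 19938 genes. Limma 3.58.1 in R 4.3.3 was fitted with 1 mean per group over all 24 arrays (16 residual and 6.56 prior degrees of freedom). Genes were called at a two-sided Benjamini-Hochberg adjusted p under 0.05 over all 19938 genes, in 12 comparisons, 5 of them main. All adjusted p-values are from this fit, which was tested on simulated data. Differences carry a standard error (SE), group means an SD (n = 3). The number of arrays limits the precision, and arrays of a group correlated at r of 0.982 to 0.994 over genes.

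The 5 genes, the gene lists and the tests were chosen with earlier results of these data known. The rule names all 5 genes, each of the locus neighbours called, the list members called, and for each of the 5 genes the 5 most like and 5 most opposed in pattern, of which the first few are given. Samples of the same replicate number deviated together (every r over 0.1) in 7 of the 12 comparisons, with a lowest r of 0.114. In the other 5, which are the comparisons with R1984A-GSI or ICN1-GSI, the samples numbered 2 did not reach this r. Names, positions and promoter sequences are from RefSeq, assembly GRCm38.p6. Figures were drawn with matplotlib 3.10.9. Alternatives were a replicate block, array weights, a second quantile normalization, centring each array on its median, leaving out dim genes, the next probe set of a gene, fits of the compared groups alone, and leaving out each array.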

Additional observations from a re-analysis of the deposited data

How the results depend on the processing

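Over 75 differences of the 5 genes and 1110 alternative values, 0 changed sign where called, 1094 stayed within the spread between replicates and 16 moved further. With the next-highest probe set, Lztfl1 differed by -1.66 (ICN1-GSI against MigR1-GSI), -1.43 (R1984A-GSI against MigR1-GSI), 1.33 (DNMAML-DMSO against MigR1-DMSO) and 0.66 (MigR1-GSI against MigR1-DMSO), and the cause was not tested.

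The number of neighbours called, 1 of 11 in 3 comparisons, was the less stable result. For ICN1-GSI against MigR1-GSI it was 2 with the replicate block and 1 to 2 when single arrays were left out. For R1984A-GSI against MigR1-GSI it was 2 with array weights, 0 in a fit of the compared groups alone and 0 to 1 when single arrays were left out. For DNMAML-DMSO against MigR1-DMSO it was 0 with dim genes left out, since Ccr2 was then not among the genes tested, and 0 to 1 when single arrays were left out. Leaving out all arrays numbered 3, an alternative added after seeing the data, gave 0 for R1984A-GSI against MigR1-GSI and 0 for DNMAML-DMSO against MigR1-DMSO. Beyond what is stated, the causes were not tested.

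With the replicate number as a block, the number of genes called over all genes was 960 for ICN1-GSI against MigR1-GSI (469 without it), 934 for DNMAML-DMSO against MigR1-DMSO (386) and 82 for MigR1-GSI against MigR1-DMSO (33), the highest of the alternatives. The highest counts for R1984A-GSI came with array weights, 690 against MigR1-GSI (272 without them) and 739 against ICN1-GSI (220). The lowest came from fits of the compared groups alone, 167 for ICN1-GSI against MigR1-GSI, 96 for R1984A-GSI against MigR1-GSI, 51 for R1984A-GSI against ICN1-GSI and 4 for MigR1-GSI against MigR1-DMSO, and from centring each array on its median, 178 for DNMAML-DMSO against MigR1-DMSO. Among the 5 genes the block changed 1 call, that of Cxcr6 in ICN1-GSI against MigR1-GSI. Xcr1, below the array median on every array, has no value with dim genes left out, and its signal limits what can be said of it.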
